A study of Rattus norvegicus with 8 samples.

Results

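The liver makes most of the proteins that form and dissolve a blood clot. Transcripts of 10 such genes were followed in rat liver: Fga, Fgb and Fgg (the alpha, beta and gamma chains of fibrinogen), F2 (prothrombin), F5, F9 and F10 (coagulation factors V, IX and X), Proc (protein C), Plg (plasminogen) and Serpinc1 (antithrombin). The genes were chosen by name from the array's annotation, but the choice was made with D3T-against-vehicle fold changes of these same arrays known. The levels and fold changes below are therefore a description of these genes, and counts over them support nothing further. Of 8740 non-control probe sets, 13 carried the name of 1 of these genes, covering 8 of the 10 (the whole array names 4736 genes). F5 and Serpinc1 had no probe set under their names and were not analysed here.

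The samples were snap-frozen livers of 8 male Fischer 344 rats of labelled age 6, with no unit given, kept on AIN 76A chow. They form 2 groups of 4, D3T and vehicle, and each liver was hybridized to its own Affymetrix array, set A of the U34 rat series. D3T (3H-1,2-dithiole-3-thione) is a sulfur-containing ring compound known to induce detoxification enzymes. The D3T rats were gavaged with 0.3 mmol per kg body weight in saturated sucrose on days 1, 3 and 5. The vehicle rats were gavaged with 0.2 ml of saturated sucrose, on the same days for 3 of the 4, while no days are labelled for vehicle replicate 2. Nothing in the labels says whether the rats of a group shared a cage, litter or day. Arrays yield brightness and not counts, and their number limits the precision. Whole liver was used, so fewer cells of a type and less RNA per cell cannot be told apart.

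Clotting proceeds as a cascade in which each protease activates the next. Factor IX helps to activate factor X, factor X cleaves prothrombin to thrombin, and thrombin cuts fibrinogen, a protein assembled from 3 different chains, into fibrin. Protein C, once activated by thrombin, slows the cascade by degrading activated cofactors, and plasminogen is the precursor of plasmin, which dissolves fibrin. Prothrombin, factor IX, factor X and protein C all need a vitamin K-dependent carboxylation to work. In rat liver, fibrinogen is also an acute phase protein whose genes respond to interleukin 6.

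The 3 fibrinogen genes are direct neighbours on rat chromosome 2 in the order Fgg, Fga, Fgb (NCBI RefSeq, assembly GRCr8). Below are the 250 bases before the annotated start of each of the 3 (for Fga the first of its annotated starts), shown because they encode the chains of 1 protein, and those of F10 and Proc, the other genes with a called probe set. Sequences are from RefSeq on build GRCr8, read 5′ to 3′ on the strand of the gene, and capitals mark matches to the searched motifs.
Fgg, chr2:170652833-170653082, plus strand: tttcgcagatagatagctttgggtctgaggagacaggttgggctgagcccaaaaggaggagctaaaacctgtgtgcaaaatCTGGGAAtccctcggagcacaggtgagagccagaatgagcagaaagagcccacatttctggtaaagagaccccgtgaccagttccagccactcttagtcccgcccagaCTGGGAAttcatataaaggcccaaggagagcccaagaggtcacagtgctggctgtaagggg
Fga, chr2:170671919-170672168, plus strand: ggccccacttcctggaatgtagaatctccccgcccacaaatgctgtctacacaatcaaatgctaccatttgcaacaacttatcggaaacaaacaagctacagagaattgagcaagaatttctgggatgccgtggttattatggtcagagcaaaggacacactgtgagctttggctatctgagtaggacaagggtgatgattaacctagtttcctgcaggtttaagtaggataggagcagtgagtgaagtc
Fgb, chr2:170700876-170701125, minus strand: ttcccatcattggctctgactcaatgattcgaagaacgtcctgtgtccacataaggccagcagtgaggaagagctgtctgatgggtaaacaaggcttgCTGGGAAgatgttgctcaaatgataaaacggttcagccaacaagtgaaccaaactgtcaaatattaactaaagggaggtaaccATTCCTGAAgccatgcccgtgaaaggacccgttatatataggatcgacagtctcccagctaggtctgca
F10, chr16:83190281-83190530, minus strand: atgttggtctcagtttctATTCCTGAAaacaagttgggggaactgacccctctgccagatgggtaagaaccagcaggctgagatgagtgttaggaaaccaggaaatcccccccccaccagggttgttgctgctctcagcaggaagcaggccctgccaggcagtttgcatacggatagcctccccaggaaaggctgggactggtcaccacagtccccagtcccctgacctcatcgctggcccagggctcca
Proc, chr18:24048942-24049191, minus strand: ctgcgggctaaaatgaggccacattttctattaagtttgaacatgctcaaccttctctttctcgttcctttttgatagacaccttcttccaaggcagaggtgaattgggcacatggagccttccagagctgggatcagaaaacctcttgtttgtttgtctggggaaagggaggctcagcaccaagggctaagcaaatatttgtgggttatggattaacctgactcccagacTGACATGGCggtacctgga

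In capitals are, in Fgg, both copies of the interleukin 6 response motif CTGGGAA. The Fgb sequence holds 1 such copy and, nearer its start, 1 match to a C/EBP motif (TTNNGNAAT), read on the opposite strand. A match to the same C/EBP motif stands far upstream in F10, also on the opposite strand, and Proc has 1 match to the core of the antioxidant response element (TGACNNNGC). Each motif was searched on both strands of the 250 bases in 33469 rat promoters. Of these, 9.56% hold CTGGGAA, 10.9% the C/EBP motif and 10.1% the antioxidant core. No 2 matches overlapped. Motifs for HNF1 (in 0.0329% of promoters), HNF4 (CAAAGTCCA, 0.338%) and an E-box (CACGTG, 5.59%) had no match in any of the 10 genes, and Fga (both annotated starts), F2 and F5 matched none of the 6 motifs. Single CTGGGAA matches also lie before F9, Plg and Serpinc1. These are matches of letters and say nothing of a bound factor. Only full matches were counted, and sites that differ from a motif in any fixed letter were not searched for. The HNF1 motif was the longest of the 6 and had a match in the fewest promoters. Its lack of a match in the 10 genes therefore does not show that they hold no HNF1 site, which was not tested.

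After D3T, the signals of Fgb, F10, Proc and 1 of 3 Fga probe sets were lower, to between 43.8% and 65.6% of vehicle, whereas no probe set of Fgg, F2, F9 or Plg passed the threshold. The threshold was an adjusted p of 0.05 in a limma fit over 5244 probe sets, the brighter 60% of the array, with Benjamini-Hochberg adjustment over all of them. Of the 13 probe sets 12 passed the brightness filter, and 5 of the 12 were called lower (background over all tested probe sets 6.48%). None was called higher in that fit, nor had any a positive fold change at an unadjusted p under 0.05, against a background of 4.2% called higher. All 4 D3T arrays lay below all 4 vehicle arrays for the same 5 probe sets (background 11.3%). The median log2 fold change of the 12 was -0.26, and it was 0.02 over all tested probe sets. Among the 748 other tested probe sets at least as bright as the dimmest tested member, 8.56% were called lower and the median was 0.05.

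**Figure D1:**
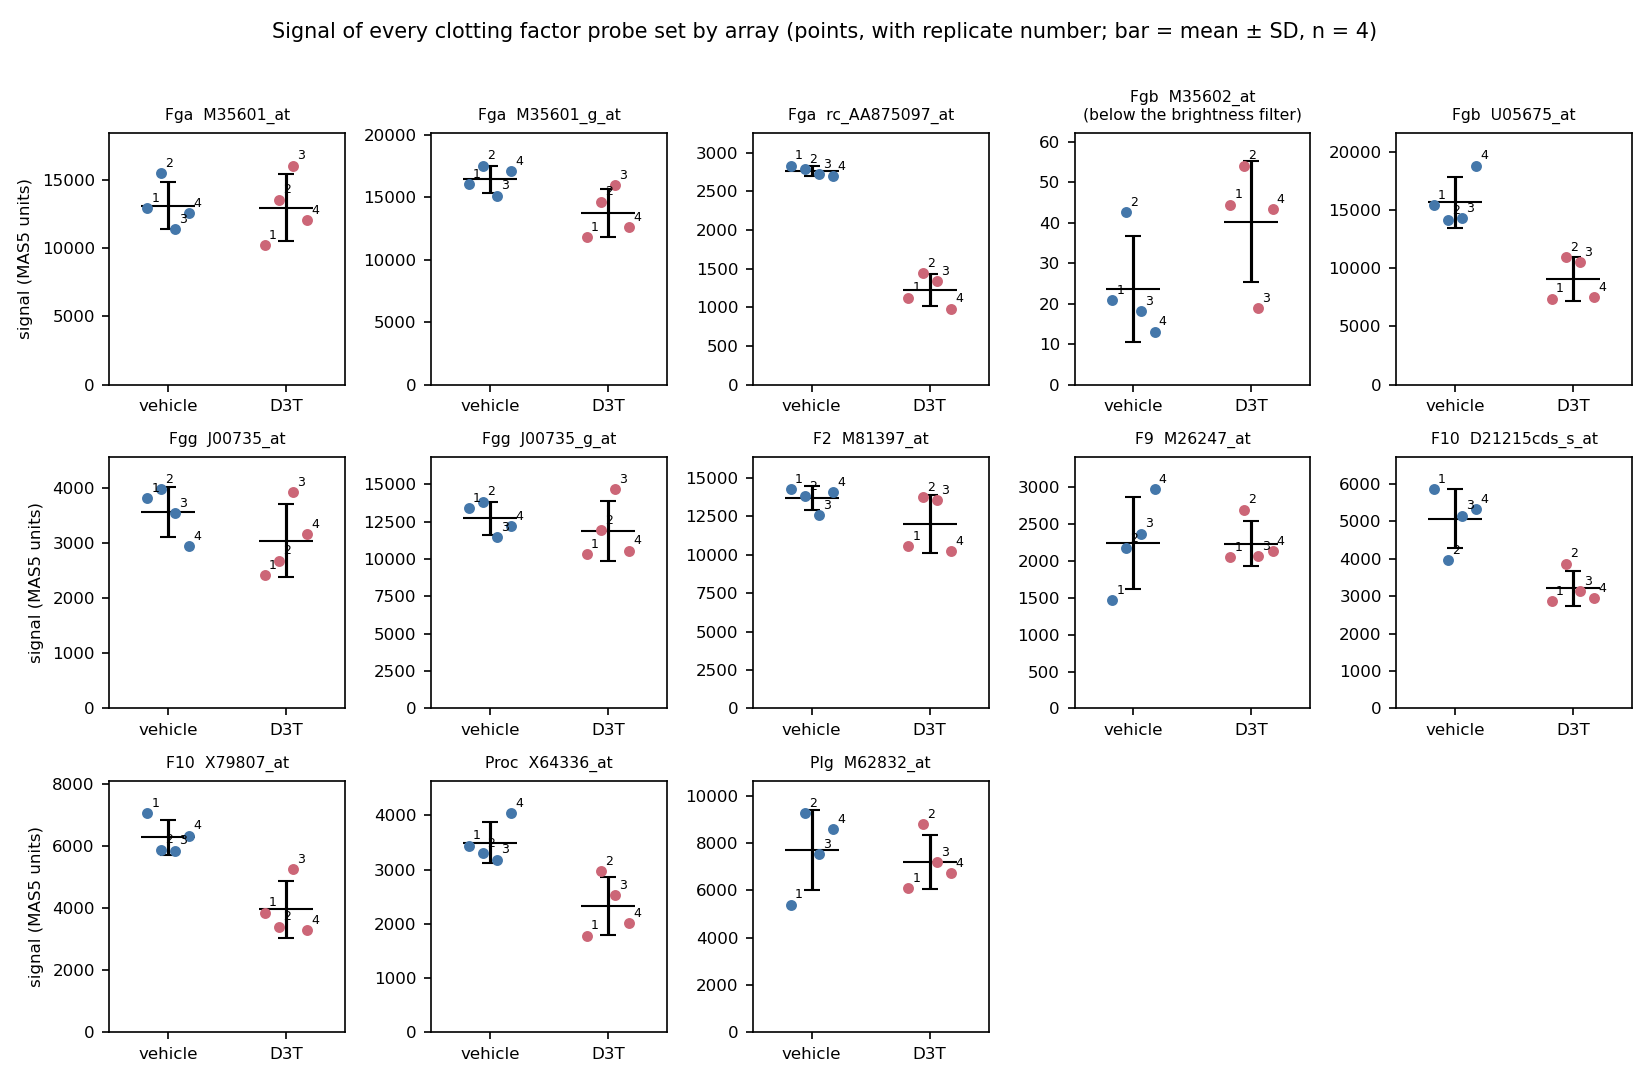
Signal in MAS5 units (vertical axes, each from 0) of all 13 probe sets in the vehicle and D3T arrays, as points with the replicate number, and the mean ± SD of 4 arrays as a bar. The groups do not overlap for Fga rc_AA875097_at, Fgb U05675_at, both F10 probe sets and Proc, and overlap for the other 8.

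The beta chain of fibrinogen, Fgb, was measured by probe set U05675_at. The vehicle arrays gave 15370, 14140, 14260 and 18800 for replicates 1 to 4, and the D3T arrays 7377, 10910, 10510 and 7493. Every D3T array lay under the lowest vehicle array, and within the D3T group replicates 1 and 4 were the low ones. The mean went from 15640 ± 2180 (SD, n = 4) to 9071 ± 1900, a 1.74-fold decrease (log2 fold change -0.80 ± 0.16, SE, limma adjusted p = 0.0126). The call held whichever single array was left out (largest adjusted p 0.0385), but not with no brightness filter (adjusted p = 0.0587). A second Fgb probe set, M35602_at, gave signals between 13.1 and 54.2 over the 8 arrays, of which 3 were under the floor of 20.4, and was not tested. With no such filter its log2 fold change was 0.63 ± 0.38 (limma adjusted p = 0.414), and so near the floor no direction can be read from it.

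The alpha chain, Fga, was measured by 3 probe sets that did not move alike. On rc_AA875097_at, a probe set made from an expressed sequence tag, the vehicle arrays gave 2833, 2788, 2721 and 2696 and the D3T arrays 1123, 1443, 1337 and 980.3. The vehicle values spanned a narrow range, with the highest 1.05 times the lowest, and every D3T value was far below them. Its mean went from 2759 ± 62.5 (SD, n = 4) to 1221 ± 208, a 2.29-fold decrease (log2 fold change -1.19 ± 0.13, SE, limma adjusted p = 0.000524) that ranked 28 of the 5244 by p. This was the largest change among the members, and the call held whichever single array was left out.

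The other pair of Fga probe sets, M35601_at and M35601_g_at, carry the name of the same Fga sequence record. M35601_at gave 12910, 15500, 11400 and 12560 in vehicle and 10190, 13540, 16030 and 12060 after D3T. The groups overlapped, with the lowest and the highest of the 8 values both in D3T arrays. Its log2 fold change was -0.03 ± 0.15 (adjusted p = 0.920), and it was positive without vehicle replicate 2 (0.06), D3T replicate 1 (0.08) or D3T replicate 4 (0.00). M35601_g_at gave 16050, 17520, 15110 and 17080 against 11800, 14630, 15960 and 12570, with 3 of 4 D3T arrays below all vehicle arrays. Its log2 fold change of -0.27 ± 0.12 did not pass (adjusted p = 0.163), but it passed with quantile normalization at -0.41 (adjusted p = 0.0107).

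The disagreement among the Fga probe sets was compared within arrays, a comparison added after the values were seen. The log2 signal of M35601_at minus that of rc_AA875097_at averaged 2.24 ± 0.17 in vehicle (SD, n = 4) and 3.40 ± 0.23 in D3T arrays. The difference between groups of 1.17 ± 0.14 (SE) had an exact two-sided permutation p of 0.0286, the smallest that 4 against 4 arrays allow, and 0.0715 after adjustment over the 5 same-gene pairs compared. For M35601_g_at the corresponding difference was 0.93 ± 0.09, with the same exact p values. The 8 arrays separated fully on both differences. Neither passed after adjustment, and with only these of the 5 pairs at the smallest possible p, neither could have passed. The adjusted p therefore does not decide whether the probe sets moved differently. Which part of the Fga transcript each probe set reads is not given in the sources used here.

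The gamma chain, Fgg, was measured by J00735_at and J00735_g_at, and neither passed. On J00735_g_at the vehicle arrays gave 13420, 13850, 11470 and 12210 and the D3T arrays 10310, 11920, 14660 and 10560. The groups overlapped and D3T replicate 3 was the highest of all 8 arrays. The log2 fold change was -0.11 ± 0.13 (adjusted p = 0.581). J00735_at gave 3826, 3980, 3556 and 2949 in vehicle and 2420, 2685, 3935 and 3166 after D3T. Vehicle replicate 4 lay below 2 of the D3T arrays, and the log2 fold change was -0.25 ± 0.16 (adjusted p = 0.335).

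**Figure D2:**
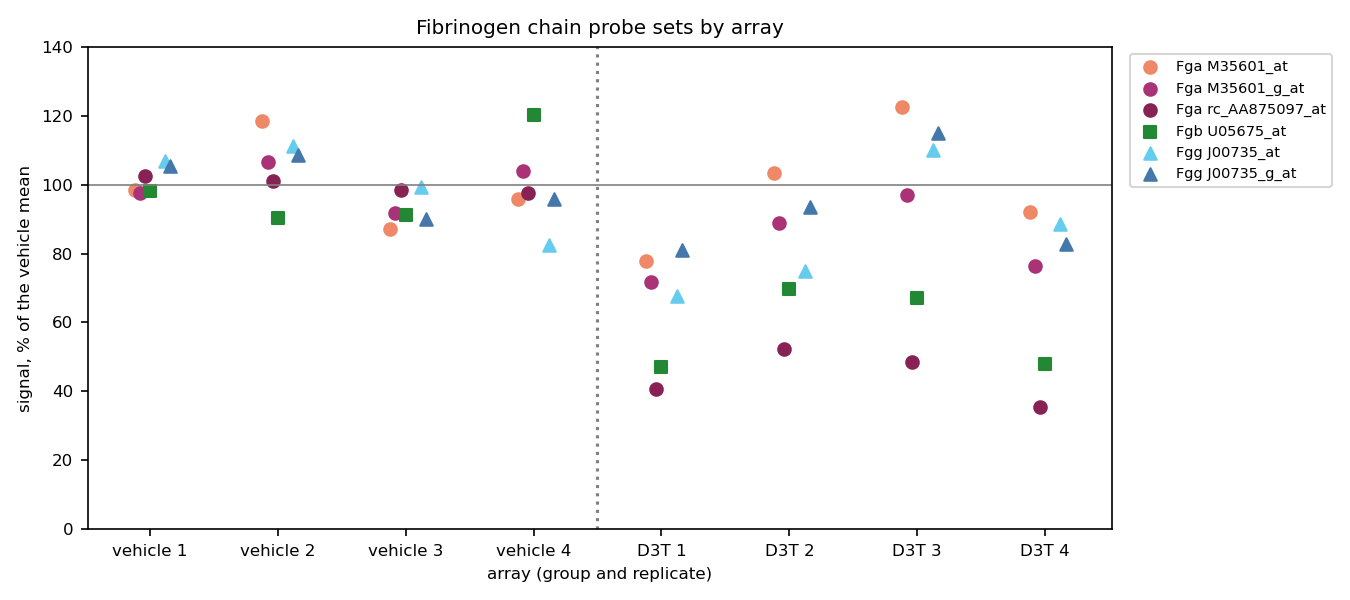
Signal of the 6 tested fibrinogen probe sets in each array, as a percent of that probe set's vehicle mean (vertical axis, from 0), with a dotted line between vehicle and D3T arrays. In each D3T array Fga rc_AA875097_at and Fgb U05675_at are the lowest of the 6, and D3T replicates 1 and 4 are lower than 2 and 3 on both.

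How the 3 chains compared within arrays depended on the Fga probe set. Fga rc_AA875097_at had a larger decrease than Fgb U05675_at, and the other pair of Fga probe sets a smaller one. Using the brightest probe set per chain, which for Fga is M35601_g_at, the log2 signal of Fga minus Fgb averaged 0.08 ± 0.18 in vehicle (SD, n = 4) and 0.61 ± 0.14 in D3T arrays, a difference of 0.53 ± 0.12 (SE). For Fgg minus Fgb the values were -0.29 ± 0.25 and 0.40 ± 0.18, a difference of 0.69 ± 0.15. Both pairs separated the 8 arrays without overlap, with an exact permutation p of 0.0286 each and 0.0429 after adjustment over the 3 pairs. The 3 chains were chosen with this contrast known, so these p-values describe these arrays and support nothing further. Fga against Fgg moved by -0.15 ± 0.06 (exact permutation p = 0.0571, adjusted 0.0571), which did not pass. With the mean of all tested probe sets per chain, which brings in rc_AA875097_at, no pair passed: the first pair's difference was 0.31, the second's 0.62 and that of Fga against Fgg -0.32 (adjusted p = 0.0571 for each, exact permutation test). With the brightest probe sets but without vehicle replicate 1, Fga against Fgg passed, at -0.19 (adjusted p = 0.0286). The other pairs had an adjusted p of 0.0857 without vehicle replicate 4 or D3T replicate 1, 3 or 4.

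Among the vitamin K-dependent proteases, F10 and Proc were lower and F2 and F9 did not pass. Factor X was read by a pair of probe sets with similar fold changes. X79807_at gave 7039, 5873, 5845 and 6322 in vehicle and 3852, 3402, 5260 and 3295 after D3T. All D3T arrays were below all vehicle arrays, with D3T replicate 3 the nearest to them. The mean went from 6270 ± 557 (SD, n = 4) to 3952 ± 905, a 1.61-fold decrease (log2 fold change -0.69 ± 0.15, adjusted p = 0.0195). D21215cds_s_at, whose name, like those with _g_, marks probes shared with other sequences, gave 5853, 3966, 5151 and 5334 against 2871, 3871, 3135 and 2949. Here vehicle replicate 2 was the lowest vehicle array and lay close to D3T replicate 2. Its log2 fold change was -0.66 ± 0.15 (adjusted p = 0.0196). Leaving out the 3 members so named, 4 of 9 were called.

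The within-array difference between both F10 probe sets changed by 0.03 ± 0.22 on the log2 scale (exact permutation p = 0.914, adjusted 0.914). X79807_at passed in 5 of 8 fits without 1 array and did not without vehicle replicate 1 (adjusted p = 0.0599), D3T replicate 1 (0.0524) or D3T replicate 4 (0.0536). D21215cds_s_at passed in 3 of 8 (adjusted p up to 0.0599) and failed without vehicle replicate 1, 3 or 4 or D3T replicate 1 or 4. Neither F10 probe set passed with no brightness filter (adjusted p = 0.0668 for X79807_at and 0.0627 for D21215cds_s_at) or with no intensity trend in the variance (0.0552 and 0.0555). F10 lies between Proz and F7 on chromosome 16 in RefSeq. Neither neighbour had a probe set under its name.

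Protein C (Proc, X64336_at) gave 3442, 3306, 3181 and 4034 in vehicle and 1784, 2975, 2528 and 2018 after D3T. All D3T arrays lay below all vehicle arrays, again with replicates 1 and 4 lowest. The mean went from 3491 ± 377 (SD, n = 4) to 2326 ± 533, a 1.52-fold decrease (log2 fold change -0.61 ± 0.16, adjusted p = 0.0399). This call was the weakest of the 5: it passed in 2 of 8 fits without 1 array, those without vehicle replicate 2 or D3T replicate 2, and the adjusted p reached 0.102 without D3T replicate 4. It did not pass with median centring (adjusted p = 0.0514), no brightness filter (0.106) or no intensity trend (0.0868).

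Prothrombin (F2, M81397_at) gave 14240, 13820, 12590 and 14090 in vehicle and 10550, 13760, 13540 and 10220 after D3T. D3T replicates 1 and 4 were below every vehicle array and replicates 2 and 3 lay within the vehicle range. The log2 fold change was -0.20 ± 0.12 (adjusted p = 0.307), and with quantile normalization it was -0.34 and passed (adjusted p = 0.0404). Factor IX (F9, M26247_at) gave 1467, 2178, 2373 and 2971 against 2049, 2699, 2067 and 2131. All D3T arrays lay within the vehicle range, which was the widest of the tested members at 2.02-fold. Its log2 fold change was 0.03 ± 0.20 (adjusted p = 0.932), and it was negative without vehicle replicate 1 (-0.16) or D3T replicate 2 (-0.07).

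Plasminogen (Plg, M62832_at), the only fibrinolysis gene among the members, gave 5401, 9251, 7534 and 8592 in vehicle and 6110, 8792, 7205 and 6723 after D3T. Every D3T array lay between the lowest and highest vehicle arrays, vehicle replicates 1 and 2. The log2 fold change was -0.08 ± 0.18 (adjusted p = 0.786), and without vehicle replicate 2 it was 0.02.

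**Figure D3:**
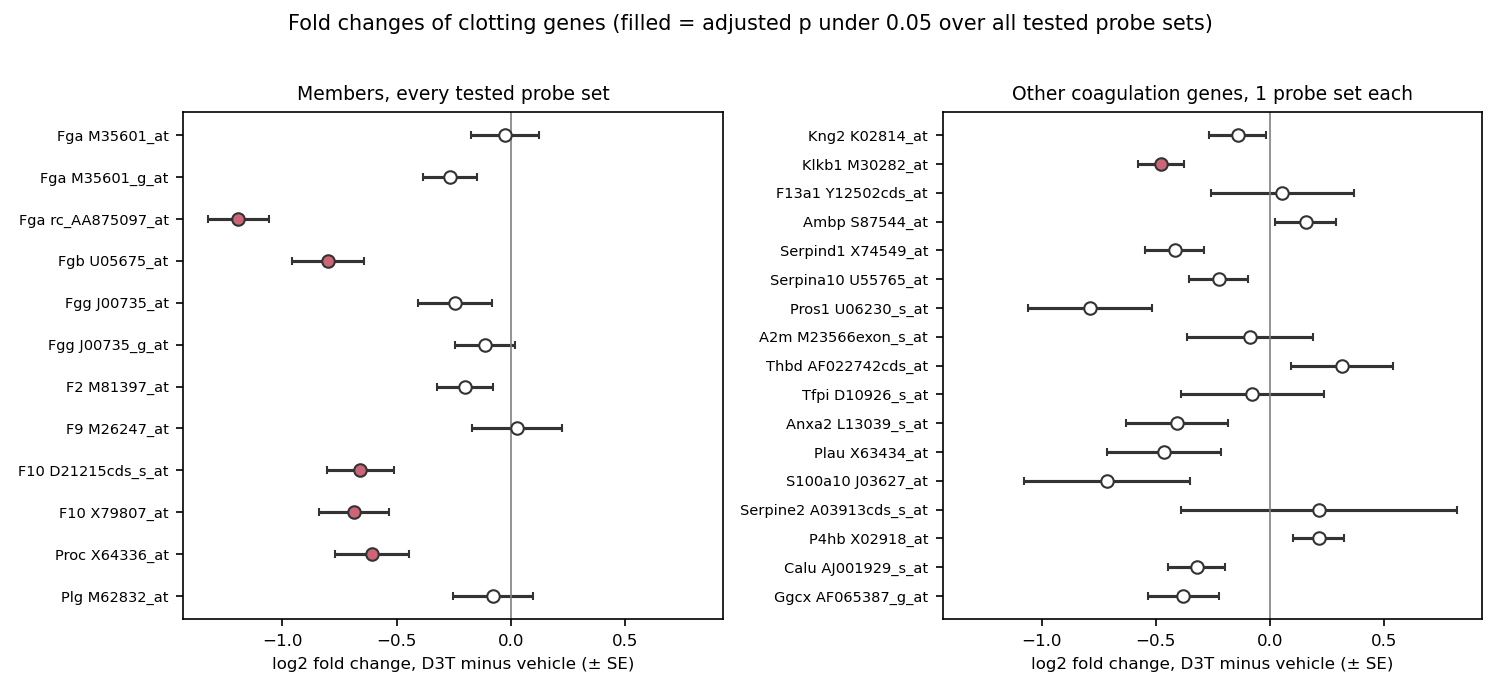
Log2 fold change of D3T minus vehicle ± SE (horizontal axes) for the 12 tested member probe sets and for 17 other coagulation genes, with filled circles for an adjusted p under 0.05 over all tested probe sets. The filled points are Fga rc_AA875097_at, Fgb U05675_at, both F10 probe sets and Proc on the left and Klkb1 on the right, all below 0.

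The same animals stood low across most members. D3T replicate 1 was under its group mean on all 12 tested probe sets and the lowest of its group on 9, and D3T replicate 4 was under it on 11 and lowest on 3. D3T replicates 2 and 3 were each above the group mean on 10 of 12. The median deviations of the 12 from the group mean were -0.20, 0.23, 0.21 and -0.14 on the log2 scale for D3T replicates 1 to 4. Over all tested probe sets those medians lay between -0.01 and 0.03. Over the 748 others at least as bright as the dimmest tested member they were -0.03, 0.05, 0.06 and -0.04. With quantile normalization the medians for the members were -0.14, 0.22, 0.14 and -0.11. Among vehicle arrays the medians ran from -0.11 for replicate 3 to 0.05 for replicate 4. Members of 1 array share its RNA and its hybridization, so these are not independent values.

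**Figure D4:**
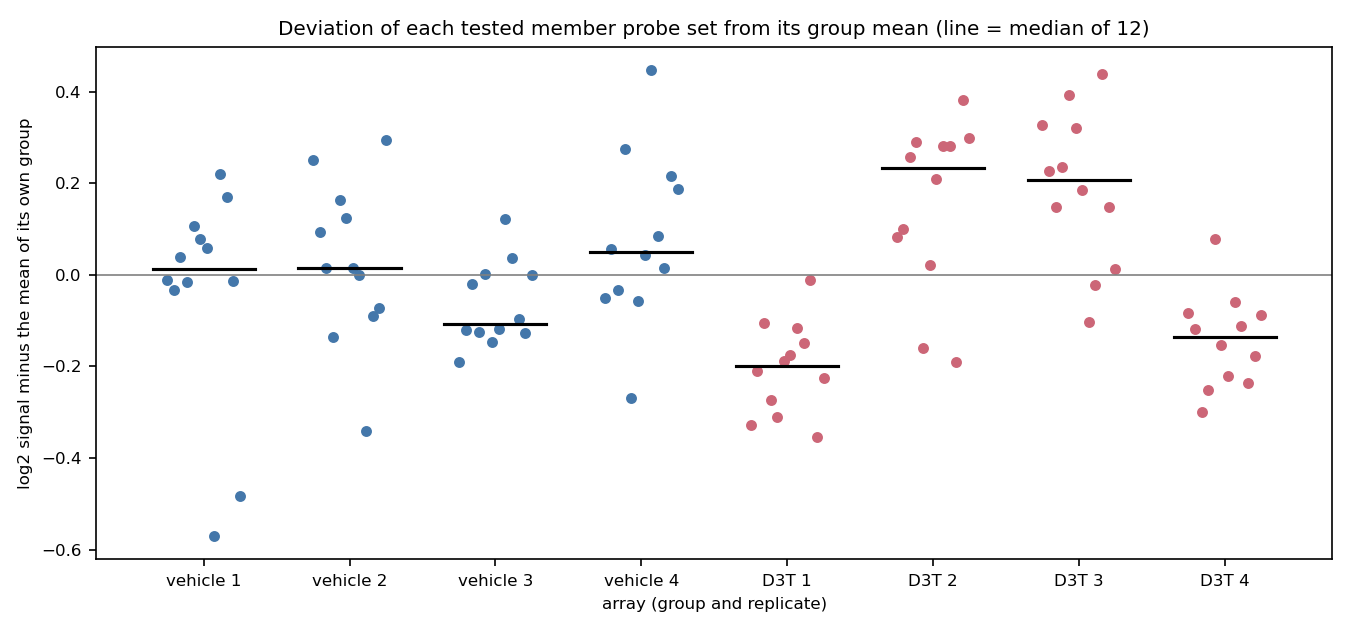
Log2 signal of each of the 12 tested member probe sets minus the mean of its own group (vertical axis) in each array, with the median as a line. D3T replicates 1 and 4 have medians of -0.20 and -0.14, and D3T replicates 2 and 3 of 0.23 and 0.21.

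The RNA quality measures, 3′ to 5′ ratios that rise with RNA degradation, had lower means after D3T, with ranges that overlapped between the groups. The log2 ratio of the 3′ to the 5′ actin control probe sets ran from 0.53 to 0.67 in vehicle and from 0.23 to 0.55 after D3T (exact permutation p = 0.057, adjusted 0.114 over 2 measures), and that of Gapdh from 0.76 to 1.12 and from 0.52 to 1.00 (exact p = 0.114, adjusted 0.114). D3T replicate 4 had the lowest actin ratio, and D3T replicate 3, at 0.55, lay within the vehicle range. With the actin ratio as a covariate none of the 12 passed (limma, 2 at an unadjusted p under 0.05, background 751 of 5244 in that fit). The log2 fold changes were then -0.92 for Fga rc_AA875097_at (adjusted p = 0.0695), -0.44 for Fgb, -0.29 and -0.54 for F10 X79807_at and D21215cds_s_at and -0.33 for Proc (adjusted p from 0.336 to 0.571). In that fit 35 of the 5244 probe sets passed, against 560 without the covariate.

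The count of 5 called member probe sets fell to 2 without vehicle replicate 1, D3T replicate 1 or D3T replicate 4, and to 3 without vehicle replicate 3 or 4. It was 4 without D3T replicate 3 and 5 without vehicle or D3T replicate 2. Over all tested probe sets 560 were called in the reported fit. Without vehicle replicate 1, D3T replicate 1 and D3T replicate 4 these were 260, 279 and 307, and without vehicle replicates 3 and 4 they were 240 and 301. Without D3T replicate 3 they were 447, and without vehicle and D3T replicate 2 they were 695 and 493.

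The rest of the clotting system was represented by 39 listed genes, of which 23 had a probe set and 17 were tested, each by its brightest probe set. Among these 17, 1 was lower and none higher (limma, 5 at an unadjusted p under 0.05), and the median of their log2 fold changes was -0.23. Over all 5244 tested probe sets 6.48% were called lower and 1536 had an unadjusted p under 0.05 (limma). Both counts over the 17 are near these backgrounds. Of the 17, the gene that passed was Klkb1, plasma prekallikrein of the contact pathway. It gave 2337, 2058, 2184 and 2282 in vehicle and 1536, 1631, 1538 and 1652 after D3T. The groups stood wholly apart, by 1.39-fold (log2 fold change -0.48 ± 0.10, adjusted p = 0.0171). Klkb1 did not pass without vehicle replicate 1 (adjusted p = 0.0552) or D3T replicate 1 (0.0519).

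By role, 1 of 3 tested other clotting factors passed as lower (list median -0.14). None of 7 inhibitors passed (2 at an unadjusted p under 0.05, median -0.09), none of 4 fibrinolysis genes (0 at an unadjusted p under 0.05, median -0.44) and none of 3 vitamin K cycle genes (2 at an unadjusted p under 0.05, median -0.32). For such unadjusted counts, here and in the marker lists below, the background is 1536 of all 5244 tested probe sets. The brightest inhibitor probe set, Ambp, the precursor of a protease inhibitor chain, had a log2 fold change of 0.15 ± 0.14 (adjusted p = 0.467), which became -0.17 with quantile normalization. Anxa2, a surface receptor for plasminogen, had -0.41 ± 0.22 (adjusted p = 0.249). P4hb, protein disulfide isomerase, had 0.21 ± 0.11 (adjusted p = 0.234).

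A pair of genes that work beside the members was added after their values were seen. Pros1, protein S, the cofactor of protein C, gave 2030, 2711, 2730 and 2532 in vehicle and 869.1, 1903, 2296 and 1122 after D3T. D3T replicates 1 and 4 were again the low ones, and the log2 fold change of -0.79 ± 0.27 did not pass (adjusted p = 0.0870). Ggcx, the carboxylase that uses vitamin K to modify prothrombin, factor IX, factor X and protein C, gave 763, 781.8, 1063 and 967.1 against 568.9, 722, 752.8 and 692.2. All D3T arrays lay below all vehicle arrays, but the log2 fold change of -0.38 ± 0.16 did not pass (adjusted p = 0.133), and its other probe set had -0.25 (adjusted p = 0.268). Thbd, thrombomodulin, listed with Pros1 among the inhibitors, went the other way and is also named after its values were seen. Its log2 fold changes were 0.31 ± 0.22 (adjusted p = 0.366) and, on a dimmer probe set, 1.02 (adjusted p = 0.0714). Of the 7 tested inhibitors 5 had negative and 2 positive fold changes.

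Other acute phase genes moved in both directions. Of 14 tested, each by its brightest probe set, 3 were lower and 1 higher (background over all tested probe sets 6.48% and 4.2%). The median of their log2 fold changes was -0.19. Crp, C-reactive protein, was 1.72-fold lower (7494 ± 1210 against 4340 ± 632, SD, n = 4, adjusted p = 0.0118). Il6r, the receptor for interleukin 6, was 1.67-fold lower (adjusted p = 0.0208), and Orm1, alpha-1-acid glycoprotein, was 1.57-fold higher (4950 ± 301 against 7788 ± 870, adjusted p = 0.0062). Il6r did not pass without vehicle replicate 3 or 4 or D3T replicate 1 or 4. The remaining lower gene, Apcs, a pentraxin like Crp, went from 5893 ± 264 to 3928 ± 235 (adjusted p = 0.00591) and is named after its values were seen. So is Cp, ceruloplasmin, for which a dimmer probe set passed as lower (log2 fold change -1.08, adjusted p = 0.0125). Its other probe sets, at -0.27 and -0.36, did not (adjusted p = 0.204 and 0.556). Among 12 tested hepatocyte transcription factor genes, 1 was lower and 1 higher (median -0.31). Cebpb, which binds acute phase promoters, was lower, at 1586 ± 192 after D3T against 2383 ± 248 (adjusted p = 0.0186). Hnf4a, a nuclear receptor that drives many hepatocyte genes, had 0.50 ± 0.14 (adjusted p = 0.0477) and passed in 6 of 19 alternative fits, in 0 of the 8 without 1 array. Cebpb did not pass without vehicle replicate 1 or 4 or D3T replicate 1.

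The tissue label was borne out by hepatocyte markers, 9 of 10 of which had a probe set, with mean vehicle signals of the 9 from 16490 (Apoh) to 42640 (Apoc3). By the brightest probe set of each gene, none of the 9 passed (limma, 4 at an unadjusted p under 0.05, background 1536 of 5244). A dimmer probe set passed as lower for Apoa1 (adjusted p = 0.0333) and for Rbp4 (log2 fold change -0.70, adjusted p = 0.0274), both named after their values were seen. By the brightest probe sets the median log2 fold change was 0.19, and the signal summed over all probe sets ran from 467900 to 662500 in vehicle and from 563200 to 761400 after D3T. Apoc3, the brightest, had 0.36 ± 0.14 (adjusted p = 0.122), which became -0.15 with quantile normalization.

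Markers of other cells in liver were summed over all their probe sets. Platelet and megakaryocyte markers had 4 of 8 genes measured and 0 of 2 tested genes past the threshold (0 at an unadjusted p under 0.05), with sums of 448.4 to 651.6 in vehicle and 599.9 to 686.2 after D3T. Itga2b, a platelet integrin, had a log2 fold change of 0.22 (adjusted p = 0.370). Endothelial sums were 1247 to 1579 and 1405 to 1649, with 1 lower of 5 tested (Lyve1, of sinusoids, 1.74-fold, adjusted p = 0.0474). That call held without D3T replicate 3 but not without any other single array. By their brightest probe sets the other tested endothelial markers did not pass (adjusted p from 0.366 to 0.781). Their log2 fold changes were 0.31 for Thbd, 0.32 for Icam2, -0.13 for Pecam1 and -0.32 for Kdr. Cholangiocyte sums were 243.6 to 407.6 and 290.9 to 416.7, with 0 of 2 past the threshold (0 at an unadjusted p under 0.05; Epcam 0.17 on the log2 scale, adjusted p = 0.696).

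Some of these sums did not overlap between the groups. Each adds the signals of all probe sets in its list, so bright probe sets weigh most and a sum is no cell count. As background, 594 of 5244 single tested probe sets had all D3T arrays below all vehicle arrays, and 414 had them above. Kupffer cell and macrophage sums were 5641 to 6466 in vehicle and 4061 to 5358 after D3T, with 1 lower (C1qb, 1.73-fold, adjusted p = 0.00918) and 1 higher (Cd14, 1.74-fold, adjusted p = 0.0105) of 4 tested. The other tested markers of this list, Lyz2 at -0.74 (adjusted p = 0.0927) and Clec4f at -0.48 (adjusted p = 0.0546) on the log2 scale, did not pass. All 4 had an unadjusted p under 0.05 (limma, background 1536 of 5244), and the median log2 fold change was -0.61. Stellate cell sums were 3803 to 6156 and 2902 to 3658, with 1 lower of 4 (Col3a1, 1.86-fold, adjusted p = 0.0399), a call that held only without vehicle replicate 2 or D3T replicate 2 among the fits lacking 1 array. The other tested stellate markers did not pass, with log2 fold changes of -0.53 for Reln, 0.14 for Col1a1 and 0.18 for Dcn (adjusted p from 0.143 to 0.645). Lymphocyte sums were 3176 to 5736 and 1584 to 2708, with 1 lower of 3 (Cd74, also made by macrophages, 2.68-fold, adjusted p = 0.00636). The other tested lymphocyte markers, Ptprc at 0.64 (adjusted p = 0.156) and Cd79b at 0.10 (adjusted p = 0.860) on the log2 scale, did not pass. Red cell sums were 14720 to 20340 and 10150 to 14030, with 0 of 3 past the threshold (2 at an unadjusted p under 0.05; Hbb -0.51 on the log2 scale, adjusted p = 0.0600). The part of these cells in the values of the clotting genes was not tested. None of the marker probe sets counts platelets or plasma proteins directly, and only liver RNA was measured.

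The genes whose pattern over the 8 arrays was most like that of Fga rc_AA875097_at, the member with the largest fold change, were RT1-DMb (Pearson r = 0.986), Tprg1l (0.982) and Lipc, hepatic lipase (0.982). RT1-DMb is a gene of antigen loading whose mean signal was 170.9 in vehicle and 43.8 after D3T, and Lipc went from 4389 to 2393. These correlations span 2 groups that differ on all 4 genes, and are given as a description without a test.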

How the data were processed

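Per the submitters' processing notes, the deposited values are MAS5 signal intensities on a linear scale, 1 per probe set and array. Its version, scaling target and detection calls were not given there. Signals were divided so that the 2% trimmed mean of every array was 500 (lowest as deposited 500.8). Signals below the 20th percentile of all values (20.4) were set to it before taking log2. The brightest 60% of 8740 non-control probe sets (5244), ranked blind to group, were fitted with limma 3.58.1 in R 4.3.3 (lmFit, eBayes with intensity trend) and adjusted by Benjamini-Hochberg. Printed signals are rescaled and not floored, with SD over 4 arrays. Pairs of probe sets were compared by exact two-sided permutation over all 70 assignments.

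Names came from the platform annotation, with 7006 probe sets matched to 1 symbol, 308 to several and 1426 to none. No symbol was newer in RefSeq. Named are all members and, from each of 14 gene lists, at most 3 called genes by size of change, or the brightest tested one where none was called. Members and lists were chosen with earlier results of these data known. The fit was tested on simulated data. Any pair of arrays shared at most 31 identical values, so none repeats another. The p-values set group differences against the variation between these rats as sampled. With nothing said of cage, litter or day, effects of these cannot be told apart from that of D3T.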

Additional observations from a re-analysis of the deposited data

Results flagged for a closer look

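In the D3T group, F9 (M26247_at) in replicate 2 had a signal of 2699, apart from the other D3T arrays at 2049 to 2131. On the log2 scale its gap to them was 0.858 of the group's range, above Dixon's 95% critical value for 4 samples. This was the only such value among the 24 group-by-probe-set combinations of the tested members, and chance alone gives one in about 1 in 20 groups. Without that array the log2 fold change of F9 was -0.07 rather than 0.03, and neither passed.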

How the results depend on the processing

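No rescaling, adding 16 in place of the floor, raising the floor to the 40th percentile, the brightest 30% and array weights each left 5 member probe sets called. Quantile normalization gave 7 and median centring 4. The count was 1 with no filter, 2 with no intensity trend and 0 with the actin covariate, and 2 to 5 without 1 array. With no filter only Fga rc_AA875097_at passed, and with no trend it and Fgb. For all probe sets these settings gave 309, 333 and 35, and 240 to 695. Other coagulation genes numbered 2 with quantile normalization or the brightest 30%, 3 with array weights, 0 with no intensity trend (7 at an unadjusted p under 0.05) or the actin covariate (1), and 0 to 2 without 1 array. With the replicate block 3 members (of the 5, not Proc and F10 D21215cds_s_at), 290 probe sets and 0 other coagulation genes passed (4 at an unadjusted p under 0.05). Of all 5244 tested probe sets, 1480 had an unadjusted p under 0.05 (limma) with no intensity trend. The actin covariate gave 751 and the replicate block 1324. Same-numbered arrays did not deviate together (correlations from -0.20 to 0.06, with replicate 3 alone correlating best with its own number), so the numbers were not taken as pairs.

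Signs turned with the actin covariate for Fga M35601_at (0.229), Fgg J00735_g_at (0.178), F2 (0.086), F9 (-0.026) and Epcam (-0.21), and with quantile normalization for Ambp (-0.17) and Apoc3 (-0.15). Without 1 array, Fga M35601_at ran from -0.135 to 0.083, F9 from -0.16 to 0.18, Plg from -0.24 to 0.02 and Epcam from -0.001 to 0.29. None of these passed in the reported fit, and the cause was not tested. Chain differences ran from 0.46 to 0.61 for Fga minus Fgb, 0.58 to 0.78 for Fgg minus Fgb and -0.19 to -0.12 for Fga minus Fgg without 1 array, and were 0.31 and 0.62 for the first 2 with the mean of all probe sets per chain. The settings for listed genes that are no members were added after the data were seen. Signals near the floor, such as Fgb M35602_at, carry no usable fold change.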
